A study of Homo sapiens with 12 samples.

Results

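The regions marked by the histone variant H2A.Z and by its acetylated form, H2A.Zac, were compared within a single cell line, the ΔTRRAP line. K562 is an established human chronic myelogenous leukemia line with erythroid and megakaryocytic features. In the cells used here, endogenous EP400 was tagged homozygously with a degron (dTAG) and the tagged protein was degraded with dTAGV-1 (500 nM, 24 hours). An exogenous EP400 without the segment that binds TRRAP (ΔTRRAP) was expressed from the AAVS1 safe-harbor site, which lies in PPP1R12C. The wild-type (WT) line carried the same degron and received the same dTAGV-1, but expressed full-length EP400. Each genotype is 1 clonal line, so a property of the clone and a property of the genotype cannot be told apart. H2A.Z and H2A.Zac chromatin immunoprecipitation sequencing (ChIP-seq) libraries were made in 2 biological replicates each, and these 4 libraries of the ΔTRRAP line, of 12 in the series, are the ones described.

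The authors kept regions that overlapped peaks reproducible between replicates in either line, and sorted the regions of each mark into regions alike in the 2 lines, regions higher in ΔTRRAP and regions higher in WT. The ΔTRRAP set of a mark was taken as its regions alike in the 2 lines plus those higher in ΔTRRAP. This gave 120954 of the 158028 regions in the 6 deposited lists, of which 50850 were H2A.Z regions and 70104 were H2A.Zac regions. The 2 lists that make up a set overlapped over 0.874 Mb for H2A.Z and 2.73 Mb for H2A.Zac. Regions alike in the 2 lines also overlapped the list higher in WT, over 0.907 and 1.61 Mb. A region was called "with" the other mark when regions of that mark in the ΔTRRAP set covered at least 25% of its length, and "alone" otherwise. The lists hold no read counts and no values per replicate, so the depth and the spread between replicates are unknown. The error given with each share is therefore a 95% Wilson interval, which covers counting error over regions only, and the range obtained when each chromosome is left out in turn. Neighboring regions are not independent, and no test across samples was possible from these lists. "Alone" means that listed regions of the other mark do not reach this coverage there and is not a measurement of zero signal.

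H2A.Z replaces H2A in nucleosomes that flank transcription start sites (TSSs) and occupy enhancers. In human cells it is deposited by the remodelers SRCAP and EP400, and EP400 belongs to the TIP60 complex, which also acetylates H2A.Z and histone H4. H2A.Z at active promoters is usually acetylated, whereas H2A.Z at poised or silent genes is usually not. TRRAP is the large subunit of TIP60 that transcription factors contact, and it is shared with the SAGA acetyltransferase complex. Acetylated H2A.Z is itself H2A.Z, so an H2A.Zac region without a listed H2A.Z region does not show that H2A.Z is missing there.

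One region whose whole-length GC content was close to the median of its class was chosen from 3 of the 4 classes as an example. Examples of the alone classes were drawn only from regions with no base within 1 kb of a TSS. That of H2A.Zac with H2A.Z was not limited in this way. Distances and CpG counts of the examples therefore do not compare the classes. The 200 bases at the center of each region are printed from the plus strand of hg38, with each CpG in capitals. The GC content of these printed bases was not matched to the class median. The H2A.Z-alone bases printed are richer in GC than those of H2A.Zac with H2A.Z, the reverse of the order of the class medians. CpG is the dinucleotide that is methylated in human DNA and is dense in the CpG islands of promoters.
H2A.Z alone, chr1:31845816-31846015: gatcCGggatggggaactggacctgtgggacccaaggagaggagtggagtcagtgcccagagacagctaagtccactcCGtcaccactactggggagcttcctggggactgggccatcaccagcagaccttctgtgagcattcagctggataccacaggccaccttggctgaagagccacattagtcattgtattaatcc
H2A.Zac with H2A.Z, chr3:33440984-33441183: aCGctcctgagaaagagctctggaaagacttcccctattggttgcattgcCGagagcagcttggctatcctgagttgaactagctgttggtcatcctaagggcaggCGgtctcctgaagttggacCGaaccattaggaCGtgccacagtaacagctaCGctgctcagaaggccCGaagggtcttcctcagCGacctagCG
H2A.Zac alone, chr15:97893820-97894019: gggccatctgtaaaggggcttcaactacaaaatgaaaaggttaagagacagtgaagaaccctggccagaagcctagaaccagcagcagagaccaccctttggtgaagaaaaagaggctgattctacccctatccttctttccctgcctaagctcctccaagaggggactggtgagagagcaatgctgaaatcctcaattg
The H2A.Z-alone example has 2 CpG and lies in an intron, at -29.9 kb from the TSS of SPOCD1 (negative distances are upstream). The H2A.Zac region with H2A.Z has 9 CpG and lies at -0.679 kb from the TSS of UBP1. The H2A.Zac-alone example has 0 CpG and lies in an intergenic stretch at -66.8 kb from the TSS of ARRDC4, in a region of 414 bp.

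Most H2A.Z regions carried H2A.Zac, and fewer H2A.Zac regions carried H2A.Z. H2A.Zac covered at least 25% of 39273 of the 50850 H2A.Z regions (77.2%, interval 76.9 to 77.6, chromosomes left out 76.9 to 77.7). H2A.Z covered at least 25% of 43318 of the 70104 H2A.Zac regions (61.8%, interval 61.4 to 62.2, chromosomes left out 61.5 to 62.1). H2A.Zac was also the more extensive mark, with 60.1 Mb against 39.5 Mb for H2A.Z. The 2 marks shared 29.9 Mb, which is 75.6% of the H2A.Z bases and 49.7% of the H2A.Zac bases.

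Full coverage was the most frequent outcome for H2A.Z, and partial coverage was more frequent for H2A.Zac. H2A.Zac covered 24970 H2A.Z regions (49.1%) over their full length and left 11068 (21.8%) without a shared base. Only 509 H2A.Z regions (1.00%) were touched but covered by less than 25%, and 1669 (3.28%) were covered by 25 to under 50%. Coverage of 50 to under 75% was found for 7.24% and of 75 to under 100% for 17.6%. Among H2A.Zac regions, 9542 (13.6%) were covered in full, 24280 (34.6%) were untouched and 2506 (3.57%) were touched but covered by less than 25%. The next steps held 8.25, 16.2 and 23.8%. Of the H2A.Z regions that H2A.Zac touched, 67.7% met 1 H2A.Zac region, 23.7% met 2 and 8.53% met 3 or more. Of the H2A.Zac regions that H2A.Z touched, 80.6% met a single H2A.Z region.

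The marks lay together most often at TSSs. A region with any base within 1 kb of the TSS of the canonical transcript of a GENCODE gene was called TSS-proximal, and 49421 of the 120954 regions (40.9%) were. Among TSS-proximal regions, 90.2% of 21241 H2A.Z regions carried H2A.Zac (interval 89.7 to 90.5) and 79.9% of 28180 H2A.Zac regions carried H2A.Z (interval 79.4 to 80.4). Among TSS-distal regions, the shares were 68.0% of 29609 H2A.Z regions (interval 67.4 to 68.5) and 49.6% of 41924 H2A.Zac regions (interval 49.1 to 50.1). With each chromosome left out, the proximal shares ran from 90.0 to 90.3% for H2A.Z and from 79.6 to 80.2% for H2A.Zac. The distal shares then ran from 67.7 to 68.4% for H2A.Z and from 49.0 to 49.9% for H2A.Zac. The gap between proximal and distal regions was thus wider than either kind of error for both marks.

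Away from the TSS, the share fell over the first kilobases and then stayed level. Regions with their center 0.5 to 1 kb from a TSS carried the other mark in 90.2% of cases for H2A.Z and 74.3% for H2A.Zac. From 2 to 5 kb the shares were 68.3% and 47.0%. More than 100 kb from any TSS they were 64.7% and 53.1%.

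**Figure D1:**
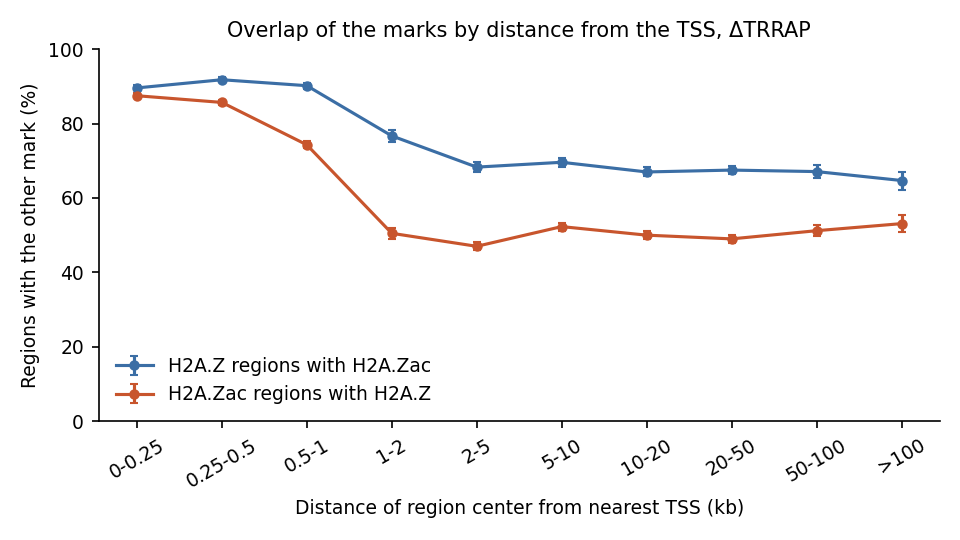
Share of ΔTRRAP regions (%) that carry the other mark over at least 25% of their length, by distance (kb) from the region's center to the nearest TSS, for H2A.Z and H2A.Zac; bars are 95% Wilson intervals over regions. Both shares are high within 1 kb, where H2A.Z reaches 91.8%, and level beyond 2 kb, where H2A.Zac stays between 47.0 and 53.1%.

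Counted the other way, each class had its own position profile. TSS-proximal regions made up 48.8% of H2A.Z regions with H2A.Zac (interval 48.3 to 49.3) and 52.0% of H2A.Zac regions with H2A.Z (interval 51.5 to 52.5). They made up 18.1% of the H2A.Z regions alone (interval 17.4 to 18.8) and 21.1% of the H2A.Zac regions alone (interval 20.6 to 21.6). All 4 values can be read against the 40.9% over all regions. The median distance to a TSS was 1.55 and 1.13 kb for the classes that held both marks, 10.4 kb for H2A.Z alone and 8.40 kb for H2A.Zac alone.

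Protein-coding and long noncoding RNA (lncRNA) genes had the same order of classes. Within 1 kb of a protein-coding TSS lay 40.6% of the H2A.Z regions with H2A.Zac, 11.1% of those alone, 43.6% of the H2A.Zac regions with H2A.Z and 13.9% of those alone. For lncRNA genes the values, in the same order, were 15.1, 5.52, 16.1 and 7.60%. At pseudogenes the order of the H2A.Z classes was the reverse: 2.94% of H2A.Z regions alone lay at a pseudogene TSS against 2.38% of those with H2A.Zac, whereas H2A.Zac alone had 1.53% against 2.48%. Small RNA genes took 1.68, 0.872, 1.81 and 1.64% of the 4 classes, and the intervals of the 2 H2A.Zac values overlapped.

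The 2 classes of single marks lay in different places once TSS-proximal regions were set aside. Among distal regions, 60.4% of the H2A.Zac regions alone had their center in an intron and 33.0% were intergenic. Among distal H2A.Z regions alone, 41.5% were intronic and 52.2% intergenic. Distal regions with both marks lay between them, with 48.4% of H2A.Z and 48.2% of H2A.Zac regions in introns and 44.3% and 44.5% intergenic. Exons held 6.33 to 7.33% of the distal regions in the 4 classes.

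The bases around protein-coding TSSs showed where the listed regions of the marks parted near the start. Listed regions are at least 250 bp long, so they do not resolve single nucleosomes. Of 20033 protein-coding TSSs, 55.2% lay under an H2A.Z region and 56.2% under an H2A.Zac region at 150 bp downstream of the start, and 49.9% lay under both. At 350 bp upstream the values were 48.5 and 51.3%. Between these points H2A.Z fell to 37.0% at 100 bp upstream, while H2A.Zac stayed at 50.6%, and 18.4% of TSSs had H2A.Zac only at that base.

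The stretch just upstream of a TSS is the nucleosome-depleted region of active promoters, and regions of H2A.Zac more often ran across it. At 150 bp downstream, 6.26% of TSSs had H2A.Zac only. At 1 kb downstream H2A.Zac again reached farther, with 26.6% of TSSs against 12.3% for H2A.Z. The lncRNA profile had the same shape at a lower level, with H2A.Z at 16.5% at 300 bp upstream, 14.9% at 100 bp upstream and 19.1% at 150 bp downstream. H2A.Zac at lncRNA TSSs was 20, 20.2 and 21.4% at these points.

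**Figure D2:**
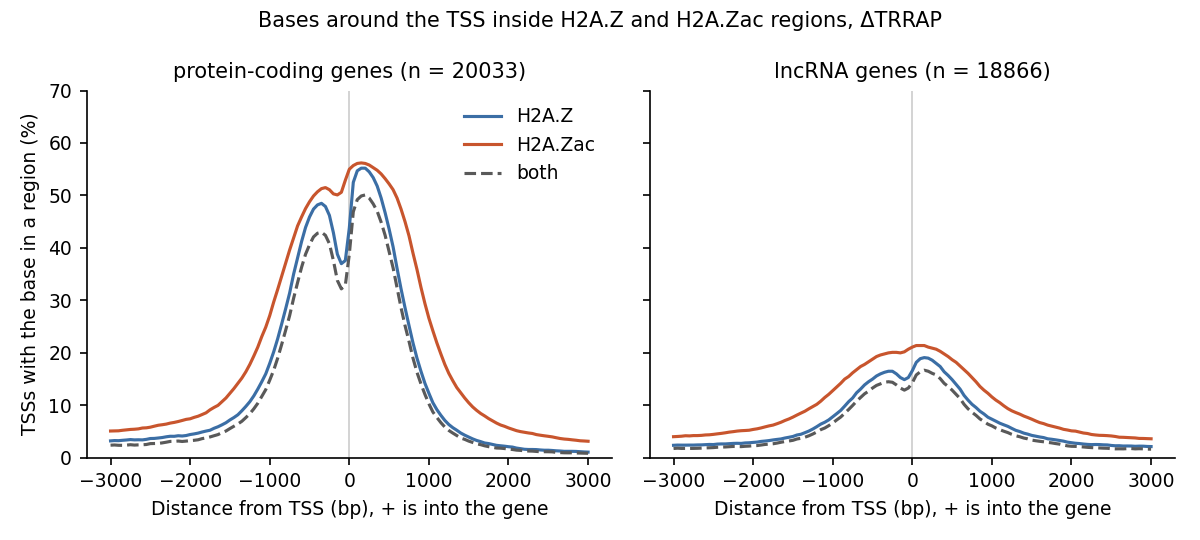
Share of TSSs (%) that lie under a region of H2A.Z, of H2A.Zac or of both, by position (bp) from the TSS in the direction of transcription, for protein-coding and lncRNA genes in ΔTRRAP. H2A.Z dips just upstream of the start, to 37.0% of protein-coding TSSs at 100 bp upstream, where H2A.Zac stays at 50.6%.

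Many H2A.Zac regions alone at promoters stood next to H2A.Z rather than far from it. Of the 5660 TSS-proximal H2A.Zac regions alone, 1167 (20.6%) touched an H2A.Z region and 1995 (35.2%) had one within 1 kb without touching it. The median gap to H2A.Z was 546 bp. For the 21126 distal H2A.Zac regions alone the median gap was 6886 bp. The 2091 TSS-proximal H2A.Z regions alone were more isolated, with a median gap of 9425 bp to H2A.Zac, and 1024 of them (49.0%) had no H2A.Zac region within 10 kb.

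Part of the H2A.Z without H2A.Zac stood where H2A.Zac was listed as higher in WT, a list that is outside the ΔTRRAP set although ΔTRRAP cells may hold some signal there. Regions of that list covered at least 25% of 4029 of the 11577 H2A.Z regions alone (34.8%). The reverse was rare: regions listed as higher in WT for H2A.Z covered 413 of the 26786 H2A.Zac regions alone (1.54%). The H2A.Z regions alone thus mix several kinds of place. Some passed the authors' threshold as higher in WT for H2A.Zac, and 509 (4.40%) were touched by H2A.Zac of the ΔTRRAP set below the 25% minimum. The rest had no listed H2A.Zac, or only a smaller overlap with H2A.Zac listed as higher in WT.

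Regions with both marks were wider. The median width of H2A.Z regions was 721 bp with H2A.Zac (quartiles 458 and 1126) and 483 bp alone (350 and 696). For H2A.Zac it was 794 bp with H2A.Z (483 and 1242) and 588 bp alone (379 and 974). After regions within 1 kb were merged, H2A.Z medians became 1173 bp with H2A.Zac and 551 bp alone, and H2A.Zac medians 1488 bp with H2A.Z and 971 bp alone. The order was the same among TSS-proximal regions, with medians of 773, 539, 822 and 571 bp for the 4 classes in this order, and among distal regions, with 682, 474, 765 and 592 bp. The share with the other mark did not rise with width throughout. Among TSS-proximal H2A.Zac regions it rose from 67.9% at 250 to 300 bp to 88.7% at 1.5 to 2 kb and was 73.1% at 3 kb and over. Distal H2A.Z regions rose from 51.9% at 250 to 300 bp to 91.9% at 2 to 3 kb.

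GC content and CpG density also separated the classes. The median GC content was 52.5% for H2A.Z with H2A.Zac, 48.5% for H2A.Z alone, 52.3% for H2A.Zac with H2A.Z and 46.9% for H2A.Zac alone. The ratio of observed to expected CpG, which is near 1 in CpG islands and low in methylated DNA, had medians of 0.486, 0.314, 0.493 and 0.246 in the same order. The central 300 bp held a median of 10, 5, 9 and 4 CpG.

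Within TSS-proximal and distal regions taken apart, the gap was small for H2A.Z and stayed wide for H2A.Zac at TSSs. At TSSs the median GC content was 58.6% for H2A.Z with H2A.Zac and 56.6% for H2A.Z alone, and away from TSSs it was 48.0 and 47.4%. For H2A.Zac it was 57.5% with H2A.Z and 51.5% alone at TSSs, and 47.5 and 45.9% away from them. The CpG ratio of TSS-proximal H2A.Zac regions was 0.680 with H2A.Z and 0.431 alone. H2A.Zac without H2A.Z at promoters was thus found in DNA poorer in CpG than H2A.Zac with H2A.Z.

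The share of H2A.Zac regions with H2A.Z rose through every step of GC content. Among TSS-proximal H2A.Zac regions it was 51.8% below 35% GC and 91.3% at 70% GC and over. Among distal H2A.Zac regions it was 36.0% and 82.8% at these ends. H2A.Z behaved differently: at TSSs its share with H2A.Zac stayed between 84.1 and 92.6% over all steps, and away from them between 65.5 and 75.2%.

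**Figure D3:**
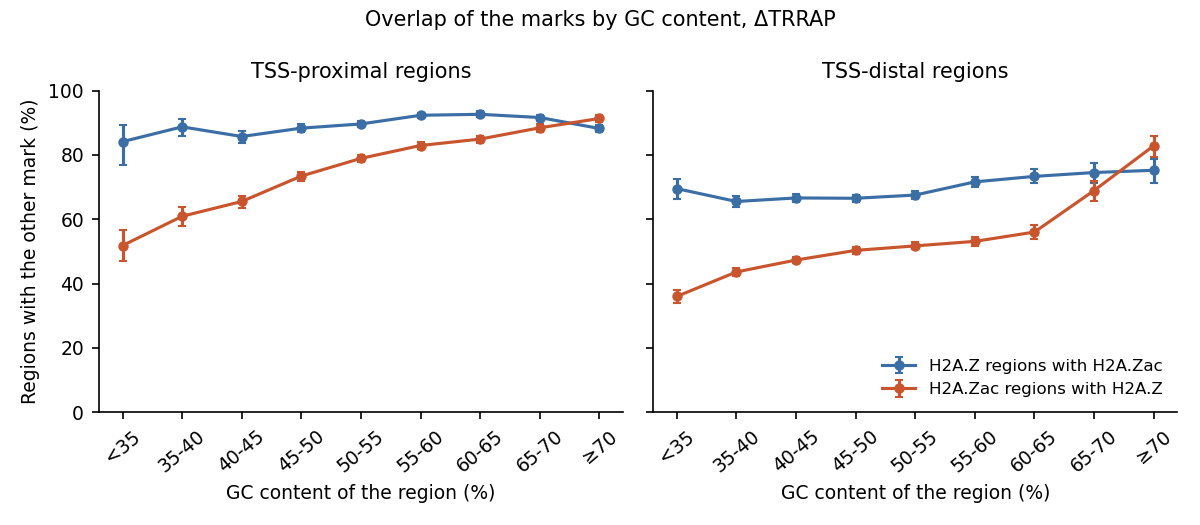
Share of ΔTRRAP regions (%) that carry the other mark, by GC content of the region (%), for TSS-proximal and TSS-distal regions of H2A.Z and H2A.Zac; bars are 95% Wilson intervals over regions. The H2A.Zac share climbs from 51.8 to 91.3% at TSSs and from 36.0 to 82.8% away from them, while the H2A.Z share changes less.

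Short motifs were counted in the central 300 bp of each region on both strands, as a description of base content and not of binding. The letters GGGCGG, a GC box read by SP factors, occurred in 49.5% of TSS-proximal H2A.Z regions with H2A.Zac and in 25.9% of TSS-proximal H2A.Zac regions alone, against 45.1% of all TSS-proximal regions. CCGGAAG, the core of many ETS factor sites, occurred in 8.32 and 4.24% of these 2 classes, against 7.47% of all. The NRF1 motif occurred in 3.22 and 1.27%, against 2.82%. All 3 of these motifs contain CpG. The E-box CACGTG also contains CpG and occurred in 6.08 and 5.62%, against 5.77%. No motif searched contains another, except that a match to the CTCF motif can contain CCAAT.

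The GATA, AP-1 and CCAAT motifs were more frequent in H2A.Zac regions alone, CCAAT with a small gap away from TSSs. AGATAA, an extended GATA site that erythroid GATA1 and GATA2 can bind, occurred in 13.1% of TSS-proximal H2A.Zac regions alone and in 8.12% of TSS-proximal H2A.Z regions with H2A.Zac, against 8.91% of all. Among distal regions it occurred in 20.6% of H2A.Zac regions alone, 17.4% of H2A.Z regions alone and 18.2% of all. TGANTCA, the AP-1 site, occurred in 13.5% of distal H2A.Zac regions alone, 9.09% of distal H2A.Z regions alone and 12.0% of all. The CTCF motif occurred in 1.32% of distal H2A.Zac regions alone and 2.05% of distal H2A.Z regions alone. CCAAT occurred in 29.6% of TSS-proximal H2A.Zac regions alone (interval 28.4 to 30.8) and in 23% of TSS-proximal H2A.Z regions with H2A.Zac, against 24.8% of all. CCAAT occurred in 29.4 to 31.7% of the distal classes, with the highest value in H2A.Zac alone (interval 31.1 to 32.3), against 30.2% of all. CACGTG occurred in 4.40 to 4.83% of the distal classes. The GC content of the classes differs, and its part in the motif shares was not tested.

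The sets were built from the lists of regions alike in the 2 lines and higher in ΔTRRAP, so the shares of the latter describe how the lists filled the classes and show 1 direction only. Regions listed as higher in ΔTRRAP made up 28.0% of all 120954 regions of the 2 sets, 17.6% of the H2A.Z set and 35.4% of the H2A.Zac set. They made up 18.5% of H2A.Z regions with H2A.Zac (interval 18.1 to 18.9) and 14.7% of those alone (interval 14.0 to 15.3). They made up 32.7% of H2A.Zac regions with H2A.Z (interval 32.3 to 33.2) and 39.8% of those alone (interval 39.2 to 40.4).

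Read gene by gene, most protein-coding promoters had both marks or neither. A gene was given the marks that had a listed region within 1 kb of its canonical TSS. Of 20033 protein-coding genes, 11431 (57.1%) had both, 791 (3.95%) had H2A.Z only, 770 (3.84%) had H2A.Zac only and 7041 (35.1%) had neither. Of 18866 lncRNA genes, 22.7% had both, 2.53% H2A.Z only, 4.16% H2A.Zac only and 70.6% neither. Among lncRNA genes with no other TSS within 2 kb, the share with both was 9.40%. Both marks were listed at 5.01% of 15233 pseudogenes and 7.41% of 7045 small RNA genes.

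Promoter CpG tracked these classes. The 300 bases from 250 upstream to 50 downstream of the TSS held a median of 28 CpG in genes with both marks, 25 in genes with H2A.Z only, 17 in genes with H2A.Zac only and 7 in genes with neither. Both marks were listed at 8.65% of promoters with 0 to 4 CpG, 40.4% of those with 10 to 14 and 78.6% of those with 30 or more. H2A.Zac only was most frequent at 5 to 9 CpG, with 6.86% of promoters, and least at 30 or more, with 2.48%. Of the 791 genes with H2A.Z only, 279 (35.3%) had a region listed as higher in WT for H2A.Zac in the same window, whereas 34 of the 770 genes with H2A.Zac only (4.42%) had one for H2A.Z.

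Promoters of 3 genes show the classes at the level of sequence. The 120 bases upstream of each TSS are printed on the sense strand of hg38, which is the minus strand for all 3, with each CpG in capitals.
FECH, both marks, chr18:57586703-57586822: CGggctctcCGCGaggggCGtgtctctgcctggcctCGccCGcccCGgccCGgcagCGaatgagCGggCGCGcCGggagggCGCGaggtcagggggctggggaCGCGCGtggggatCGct
GFI1, H2A.Z only, chr1:92486926-92487045: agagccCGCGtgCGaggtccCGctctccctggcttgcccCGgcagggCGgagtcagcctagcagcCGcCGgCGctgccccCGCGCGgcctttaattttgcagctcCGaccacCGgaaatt
H2BC4, H2A.Zac only, chr6:26123927-26124046: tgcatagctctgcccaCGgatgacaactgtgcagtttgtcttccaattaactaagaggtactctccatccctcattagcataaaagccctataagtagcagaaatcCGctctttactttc
FECH encodes ferrochelatase, the last enzyme of heme synthesis, and its 120 bases hold 19 CpG. The 120 bases of GFI1, a transcriptional repressor of hematopoietic cells, hold 14. H2BC4 encodes a replication-dependent histone H2B, and its 120 bases hold 2 CpG. Over the 300 bases counted above, FECH, GFI1 and H2BC4 hold 34, 27 and 7 CpG, against class medians of 28, 25 and 17. H2BC4 thus lies at the lower quartile of its class, which is 7.

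The regions at these 3 TSSs differed in layout as well. At FECH an H2A.Z region of 1156 bp ran from -712 to 443 bp, with an H2A.Zac region from -421 to 835 bp. A further 509 bp H2A.Z region of the higher-in-WT list lay inside it, and 3 H2A.Zac regions higher in ΔTRRAP lay upstream, the longest 2152 bp.

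At H2BC4 an H2A.Zac region of 2595 bp, higher in ΔTRRAP, ran from -1165 to 1429 bp, and H2A.Z began 1872 bp downstream. At GFI1 the order was the reverse, with H2A.Z from 472 to 1216 bp downstream. A further H2A.Z region there, of 744 bp from 1108 to 1851 bp, was on the list higher in WT. The H2A.Zac region there, of 1760 bp, was on the list higher in WT, so GFI1 lacked H2A.Zac only in the ΔTRRAP set. The nearest H2A.Zac region of the ΔTRRAP set was 187 kb away.

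**Figure D4:**
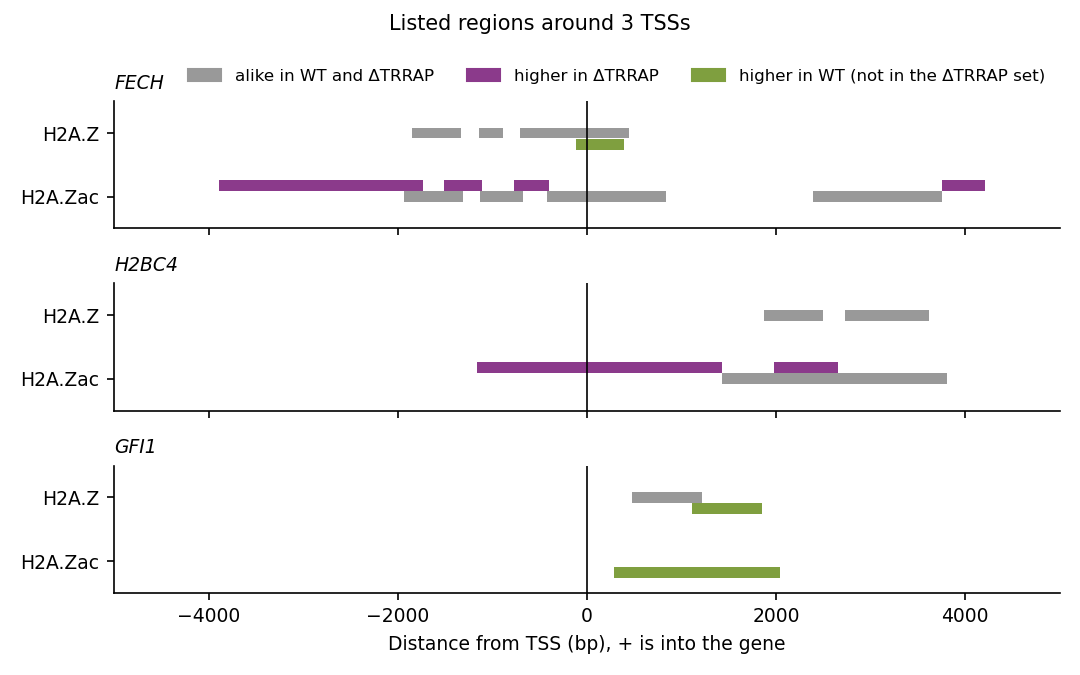
Listed H2A.Z and H2A.Zac regions around the TSS of FECH, H2BC4 and GFI1, by distance (bp) from the TSS in the direction of transcription; grey regions are alike in WT and ΔTRRAP, purple are higher in ΔTRRAP, and green are on the list higher in WT, which is outside the ΔTRRAP set but can overlap grey regions, as at FECH. H2A.Zac of H2BC4 spans 2595 bp with no H2A.Z at the TSS, and at GFI1 the H2A.Zac region is green.

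The genes of the complex under study had both marks in nearly all cases. Of 19 TIP60 subunit genes, 18 had both, against 57.1% of all protein-coding genes, and ACTB, the actin subunit, had H2A.Zac only, over all 2001 bp of its window, with the nearest H2A.Z region 2.15 kb away. The ACTB window also held an H2A.Zac region listed as higher in WT. With the TSSs of all transcripts or gene 5′ ends, all 19 had both. All 17 genes for H2A.Z itself and its exchange factors had both, as had all 29 replication licensing genes. EP400 had 1664 bp of H2A.Z and 1961 bp of H2A.Zac in its window. PPP1R12C, the host of the rescue construct, had both marks too, with 1061 and 1811 bp. DACH1, a transcriptional regulator examined in the study, had both marks. CCND1, the cyclin D1 gene, and TERT, the catalytic subunit of telomerase, had no region of either mark within 1 kb in the ΔTRRAP set, although CCND1 had regions of both marks and TERT an H2A.Zac region listed as higher in WT there. The nearest ΔTRRAP region was an H2A.Z region 1.77 kb away at CCND1 and an H2A.Zac region 49.2 kb away at TERT.

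Housekeeping families had both marks more often than the 57.1% of all protein-coding genes. Both marks were listed at 77 of 78 mitochondrial ribosomal protein genes, with H2A.Z only at MRPS23, and at 46 of 48 proteasome genes, with neither at PSMA8 and PSMB11. Of 89 cytosolic ribosomal protein genes, 77 (86.5%) had both and 6 had H2A.Zac only, namely RPL8, RPL18, RPL38, RPS16, RPS23 and RPS29. RPL10 and RPL36A had H2A.Z only. H2A.Zac was higher in ΔTRRAP at the window of 67 of the 89 (75.3%), against 36.6% of all protein-coding genes, and H2A.Z at 33 (37.1%), against 13.9%. Genes without a listed region of the mark count as not higher in these shares, and they are more frequent among all protein-coding genes. Regions listed as higher in WT were not counted here.

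Replication-dependent histone genes stood out for H2A.Zac without H2A.Z. These genes make the core and linker histones of S phase and lie in clusters, mostly on chromosome 6 with a smaller group on chromosome 1. Of 68, 30 (44.1%, interval 32.9 to 55.9) had H2A.Zac only, 21 had both, 17 had neither and 0 had H2A.Z only. The shares of all protein-coding genes were 3.84% with H2A.Zac only, 57.1% with both, 35.1% with neither and 3.95% with H2A.Z only. In the 30 genes, H2A.Zac covered a median of 1844 bp of the 2001 bp window, and 0 of them had H2A.Z listed as higher in WT there. H2A.Zac was higher in ΔTRRAP at 49 of the 68 (72.1%), against 36.6% of all protein-coding genes, and H2A.Z at 12 (17.6%), against 13.9%. As above, genes without a listed region of the mark count as not higher in these shares. Neighboring histone genes share windows and near-identical copies share reads, so the 68 are not independent and the calls of single members are uncertain. Among TSS-proximal H2A.Zac regions without H2A.Z at protein-coding genes, the widest, of 5698 bp, lay at H4C2 (chr6:26025348-26031045) and shared 0 bases with H2A.Z.

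Markers of the erythroid and leukemic identity of K562 cells often had H2A.Zac only. Of 22 marker genes of the line, 9 (40.9%) had both marks, 9 (40.9%) H2A.Zac only, 0 H2A.Z only and 4 (18.2%) neither, so at least 1 mark was listed at 18. The shares of all protein-coding genes were 57.1% with both, 3.84% with H2A.Zac only, 3.95% with H2A.Z only and 35.1% with neither. The genes with both included KLF1, TFRC, the transferrin receptor, EPOR, the erythropoietin receptor, and HBZ, an embryonic globin, although H2A.Z covered only 35 bp of the KLF1 window. With a window of 2 kb, H2A.Zac only was listed at 6 of the 22. The genes with H2A.Zac only within 1 kb included SLC4A1, the anion exchanger of red cells, HBG1 and HBG2, the fetal globins, and the transcription factor genes TAL1, LYL1, GFI1B and NFE2. The nearest H2A.Z region was 4.78 kb away at TAL1, 4.23 kb at SLC4A1, 16.1 kb at GFI1B and 22.7 kb at NFE2. GATA1, the master regulator of the lineage, had neither within 1 kb, with H2A.Zac 2.94 kb and H2A.Z 9.20 kb away, and ALAS2, EPB42 and HBE1 also had neither.

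Heme biosynthesis genes mostly had both marks. Of 13 heme biosynthesis genes, 11 (84.6%) had both, CPOX had H2A.Zac only over 1641 bp with H2A.Z 70.1 kb away, and ALAS2, the erythroid enzyme of the first step, had neither. Over all protein-coding genes 57.1% had both, 3.84% H2A.Zac only and 35.1% neither. Of 10 globin genes, HBA1, HBA2, HBD, HBM and HBZ had both, HBG1, HBG2 and HBQ1 had H2A.Zac only (HBQ1 with H2A.Z listed as higher in WT), and HBB and HBE1 had neither. With gene 5′ ends, 5 globin genes had H2A.Zac only and 1 had neither. Within 2 kb, and with the TSSs of all transcripts, 1 had neither as well. HBA1, HBA2, HBZ, HBG1, HBG2 and HBE1 are also among the 22 markers, as is ALAS2, so they are not a second observation. At HBG1 and HBG2 the nearest H2A.Z region was 15.3 and 20.2 kb away. H2A.Zac was higher in ΔTRRAP at 0 of the 10 globin genes, against 36.6% of all protein-coding genes, with genes without listed H2A.Zac again counted as not higher. H2A.Zac regions listed as higher in WT lay in the window of 2 of the 5 globin genes with both marks and 1 of the 3 with H2A.Zac only. No share over all protein-coding genes is given here for that list, so these counts describe single genes only. HBA1 and HBA2, and HBG1 and HBG2, are near-identical copies, and their calls are uncertain for that reason.

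Among 24 erythroid and megakaryocytic transcription factor genes, 14 (58.3%) had both marks, near the 57.1% of all protein-coding genes. H2A.Zac only was listed at 4 (16.7%, against 3.84% of all), H2A.Z only at 2 (8.33%, against 3.95%) and neither at 4 (16.7%, against 35.1%). The 4 with H2A.Zac only, GFI1B, LYL1, NFE2 and TAL1, are the same as among the 22 markers. The H2A.Z-only genes were GFI1 and BCL11A, a repressor of fetal globin genes, whose nearest H2A.Zac region was 36.6 kb away. FLI1, GATA2 and RUNX1 had neither at the canonical TSS, and RUNX1 had H2A.Z 1.07 kb away. The choice of TSS bears on such genes, since GATA2 had H2A.Zac when the TSSs of all its transcripts were used. With the TSSs of all transcripts, 2 of the 24 had neither. Among the 4 with neither at the canonical TSS, a region listed as higher in WT lay in the window of 1 gene for H2A.Z and of 1 for H2A.Zac. As for the globin genes, no share over all protein-coding genes is given, and these counts describe single genes only.

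Neither mark was listed at 35.1% of all protein-coding genes, which is the value to set beside the markers of other cell types. All 15 hepatocyte genes had neither within 1 kb, but 10 had neither within 2 kb and 11 with the TSSs of all transcripts. The nearest H2A.Z region was 1.44 kb away at APOA1, an apolipoprotein gene, and 1.46 kb away at CYP2E1, a cytochrome P450 gene. Of 15 neuronal genes, 11 had neither, GAD1, SLC17A7 and SYP had both, and SNAP25, a synaptic vesicle fusion protein, had H2A.Z only, with H2A.Zac 110 kb away. With the TSSs of all transcripts, 6 neuronal genes had both. Of 15 lymphoid genes, 8 had neither (53.3%, interval 30.1 to 75.2, and 6 with the TSSs of all transcripts), CD3D, CD3E, CD3G, CD79B and LCK had both, CD4 had H2A.Z only and ZAP70 had H2A.Zac only. Within 500 bp, 3 lymphoid genes had both and 3 had H2A.Zac only. Neither mark was listed at 392 of 413 olfactory receptor genes (94.9%), which are silent outside the nose.

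HOX genes, which pattern the body axis, had both marks at 9 of 39, H2A.Zac only at 7 (HOXB1, HOXB2, HOXB4, HOXB5, HOXB9, HOXD4 and HOXD13), H2A.Z only at 0 and neither at 23. H2A.Z only was listed at 3 HOX genes within 2 kb, 3 with the TSSs of all transcripts and 4 with gene 5′ ends. The shares within 1 kb over all protein-coding genes were 57.1, 3.84, 3.95 and 35.1% in this order. Zinc finger genes on chromosome 19, which lie in clusters of repressors, had both at 195 of 246 (79.3%) and H2A.Zac only at 14. Small nucleolar RNA host genes, which are spliced noncoding hosts with promoters like those of ribosomal protein genes, had both at 24 of 32, against 22.7% of all lncRNA genes and 9.40% of those with no other TSS within 2 kb. DANCR, SNHG18 and SNHG30 had H2A.Z only, and SNHG29 had H2A.Zac only.

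**Figure D5:**
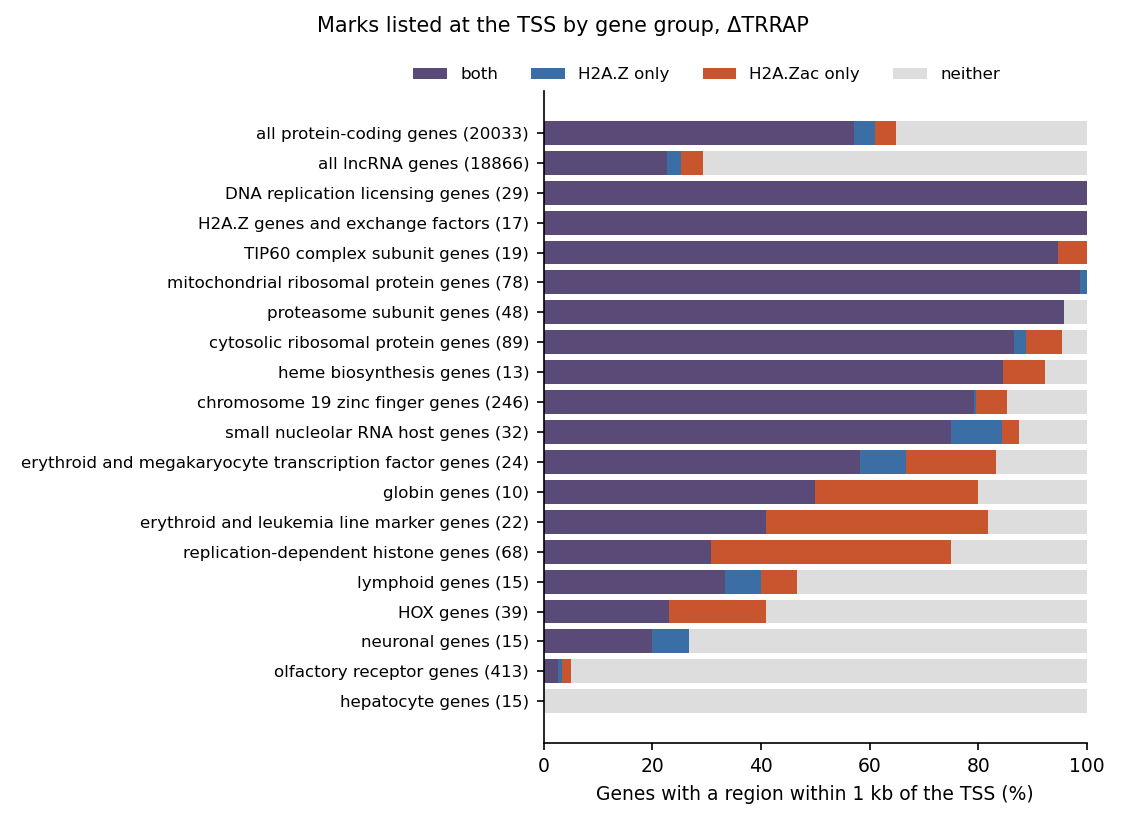
Share of the genes of each group (%) with both marks, H2A.Z only, H2A.Zac only or neither within 1 kb of the canonical TSS in ΔTRRAP. Replication-dependent histone genes and markers of the K562 line have the longest H2A.Zac-only bars drawn, at 44.1 and 40.9%, against 3.84% of all protein-coding genes.

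The widest regions of each class point to single loci. The widest H2A.Z region with H2A.Zac at a protein-coding TSS spanned 7132 bp at GPC6, a glypican gene, was higher in ΔTRRAP and was 97.8% covered. PTCH1, the Hedgehog receptor, followed with 5674 bp, ARID5B with 5144 bp and THUMPD2 with 4933 bp. H2A.Z alone at protein-coding TSSs was widest at FZD8, a Wnt receptor gene, with 3538 bp of which 23.1% was covered, then at SP9 with 3487 bp of which 16.9% was covered, at ENSG00000257065 with 3348 bp and at PROX1 with 3103 bp, the latter 2 both higher in ΔTRRAP. FZD8, SP9 and PROX1 encode developmental regulators. The widest distal H2A.Z regions alone had THOC1, PRL and ADAM19 as nearest genes, with 4663, 4380 and 4307 bp.

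H2A.Zac regions with H2A.Z reached greater widths. The widest of all spanned 22000 bp, at -30.8 kb from the TSS of CPEB4 (chr5:173846503-173868502), and H2A.Z covered 39.0% of it. A second region assigned to CPEB4, a translation regulator that rises during erythroid maturation, spanned 11126 bp and was 51.9% covered, and a region near MAT2B spanned 10396 bp. The widest at protein-coding TSSs were at OR2A12 with 7290 bp, GPC6 with 6976 bp, PLD1 with 6900 bp and QKI with 6823 bp, covered to 28.3% at OR2A12, over the full length at GPC6, to 73.0% at PLD1 and to 42.7% at QKI. H2A.Zac alone at protein-coding TSSs was widest at H4C2, followed by CPEB4 with 5642 bp, GUCA1B with 5633 bp and ANK1, the erythroid ankyrin gene, with 5472 bp of which 14.1% was covered. Its widest distal regions had HPS1, NCAM2 and ZFP36L2 as nearest genes, with 7737, 7173 and 7109 bp.

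Across the autosomes and chromosome X, the share of H2A.Z regions with H2A.Zac ran from 66.6% on chromosome 18 to 84.8% on chromosome 17. The share of H2A.Zac regions with H2A.Z ran from 54.0% on chromosome X to 68.5% on chromosome 21. The H2A.Z share on chromosome X was 84.7%.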

How the data were processed

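H2A.Z and H2A.Zac ChIP-seq of the ΔTRRAP line was analyzed from the region lists of the series. Per the submitters' processing notes, Bowtie2 2.4.5, MACS2 2.2.7.1, deepTools 3.5.1 and bedtools 2.30.0 were used on hg38. Per the study's methods, peaks were filtered for reproducibility between replicates (irreproducible discovery rate), the peaks kept for WT and ΔTRRAP were joined, and only regions of the WT and ΔTRRAP comparison with at least 25% of their length in these peaks were listed. A mark that did not pass this filter is not listed, and a peak of the WT line was enough for a region to be kept. The deposited score of each region is a log10 likelihood ratio from the authors' comparison of WT and ΔTRRAP (3 or more in the lists of regions higher in 1 line, under 3 in the list of regions alike). It is the authors' own result and served here only to place regions in lists and, for single regions, to apply a higher threshold. The shortest region is 250 bp. No column of the lists holds a single sample, depth is unknown, and the inputs, signal tracks and gene expression were not analyzed here.

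Coverage, distance, GC content, CpG and motifs were computed from hg38 with Python 3.11.15, numpy 2.4.6, pandas 2.3.3 and scipy 1.17.1, and plotted with matplotlib 3.10.9. Genes came from GENCODE 44, which is not the release the study used. The TSS was that of the Ensembl canonical transcript. This was chosen after the 5′ ends of some genes were seen to be starts of long read-through transcripts (canonical start over 100 kb from the 5′ end in 282 of 20033 protein-coding genes). Covered lengths were compared with bedtools 2.31.1 and differed for 0 of 50850 regions, and 1500 of 1500 simulated partners over the minimum were recovered among 4000 simulated regions. The genes named were those of the fixed lists, the 4 protein-coding genes with the widest TSS-proximal region and the 3 widest distal regions of each class, and CCND1, TERT, DACH1, EP400 and PPP1R12C. Typical regions and the 3 promoters printed were chosen to show the classes, and 1 gene and 1 region chosen the same way are not reported here. The members and the lists were chosen with earlier results of these data known. Shares have 95% Wilson intervals, and no p-value was computed. Alternatives changed the minimum overlap, the unit counted, the regions admitted and the definition of the TSS.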

Additional observations from a re-analysis of the deposited data

How the results depend on the processing

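No paired analysis was possible because the lists hold no value per replicate, and for the same reason no replicate could be left out. Sharing 1 bp, or 50% of the length, gave 78.2 and 74.0% of H2A.Z regions with H2A.Zac and 65.4 and 53.5% of H2A.Zac regions with H2A.Z. Merging regions within 1 kb gave 75.3 and 66.3%, and counting base pairs gave 75.6 and 49.7%. Regions alike in the 2 lines alone gave 66.9 and 62.9%, counting the other mark's higher-in-WT list gave 85.2 and 62.4%, a log10 likelihood ratio of at least 10 for admission of regions higher in ΔTRRAP gave 70.2 and 58.8%, and widths of 500 bp and over gave 83.5 and 66.9%. The H2A.Z share was above the H2A.Zac share in each of these settings.

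For TSS-proximal shares, the classes are given in the order H2A.Z with, H2A.Z alone, H2A.Zac with, H2A.Zac alone. They were 44.4, 15, 46.2 and 13.8% at 500 bp, 52.9, 23.5, 55.9 and 28.8% at 2 kb, 40.6, 11.1, 43.6 and 13.9% for protein-coding TSSs, and 54.9, 23.1, 58.1 and 29.8% for all transcripts. Gene 5′ ends, an alternative chosen after seeing the data, gave 46.1, 17.6, 49.1 and 20.1%. A minimum of 50% gave 49.3, 20.3, 52.8 and 25.6%, and widths of 500 bp and over gave 50.3, 21.0, 52.8 and 20.6%. Sharing 1 bp gave 17.3% for H2A.Z alone and 18.5% for H2A.Zac alone. Counting the higher-in-WT list gave 46.0% for H2A.Z with H2A.Zac and 17.3% for H2A.Z alone. In each setting the classes with both marks had the higher shares.

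Protein-coding and lncRNA genes with both marks were 56.0 and 20.9% at 500 bp, 58.6 and 25.2% at 2 kb, 61.7 and 24.4% for all transcripts, 54.2 and 20.8% with regions alike in the 2 lines alone, and 47.2 and 9.40% for genes with no other TSS within 2 kb. Gene 5′ ends gave 54.9% for protein-coding genes. Among 304 recounts of all gene lists under other TSS definitions, an alternative chosen after seeing the data, 40 moved by over 1.5 times, and 1 of the 80 whose count was 10 or more did (olfactory receptor genes with both marks, 18 at 2 kb). Globin genes with H2A.Zac only were 5 with gene 5′ ends, and proteasome genes with neither were 6. Of 20 recomputed GC medians 15 left the interval of the reported median, and of 12 width medians 8 did. H2A.Z alone and H2A.Zac alone exchanged order in their TSS-proximal shares at 500 bp and at widths of 500 bp and over. The lists give no depth, so a mark below the authors' threshold and an absent mark cannot be told apart.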
